A study of Rattus norvegicus with 10 samples.

Results

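The genes described here mainly encode G protein-coupled receptors. These are receptors for lipids, nucleotides and adenosine, adrenergic receptors, adhesion receptors and numbered orphan-type receptors (Gpr genes). With them are the regulators of G protein signalling (RGS proteins). The P2rx genes, also included, encode ATP-gated channels instead. All were chosen by gene symbol, with chemokine and complement receptors left out, and 62 of the 9003 genes in the table matched. The choice was made with earlier results of these data known. By role they were 8 RGS genes, 7 receptors for lysophospholipids, 6 for prostanoids, platelet-activating factor or leukotrienes and 11 named as receptors for nucleotides or adenosine. The others were 2 adrenergic receptors, 5 adhesion receptors, 9 Gpr genes with a described lipid, proton or metabolite ligand and 14 other Gpr genes. Formyl peptide, leukotriene B4 and histamine receptors contributed no member.

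RNA-seq had been performed on splenic M2 macrophages, sorted by flow cytometry from WKY /Ncrj rats, in 10 libraries of 4 groups. Control rats had no nephritis (n = 2). Rats of the GN group had glomerulonephritis, induced with the antibody TF78 against the glomerular basement membrane, and received no cells (n = 2). In the other two groups, nephritic rats were given human adipose-derived mesenchymal stem cells (ASCs) whose membranes carried the dye DiD. Macrophages of these animals were sorted into DiD-positive cells, to which ASC-derived extracellular vesicles (EVs) had been transferred (EV+, n = 3), and DiD-negative cells (EV-, n = 3). The EV- cells thus came from treated animals and are not an untreated control. The labels give neither sex, age nor the day of harvest, and do not say whether a library came from 1 animal or from pooled animals. The methods describe female rats aged some weeks and call the libraries biological replicates.

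The labelled cell type was checked against its markers. Csf1r, the receptor for macrophage colony-stimulating factor, ranged from 5800.4 to 8155 CPM (read counts scaled to a common library size) over the 10 libraries and the myeloid lysozyme Lyz2 from 15325 to 20176 CPM. The M2 markers Cd163 and Mrc1 reached at most 1.81 CPM in any library, so the name M2 is used here only as the label of the sort. Markers of other cells were also followed. Markers of natural killer (NK) and T cells, 16 genes without Cd8a, summed to between 25.6 and 52.9 CPM in the control, GN and EV+ libraries and to 962, 141 and 72.7 CPM in EV- replicates 1, 2 and 3. In EV- replicate 1, 15 of these 16 genes were at their highest, and calls that were lost or gained without that library are given below. Cd8a, kept out of the sum because every library carried it, was at 199 and 201 CPM in control, 268 and 265 in GN, 314, 254 and 330 in EV+, and 333, 261 and 312 in EV-, and it passed the test against control in EV+ and EV-. Of 12 neutrophil markers, the 7 in the table summed to between 550 and 556 CPM in control, 611 and 690.2 in GN, 701 and 720 in EV+ and 656 and 744 in EV-. By fold 4 of these 7 were higher than control in GN and 6 in both EV+ and EV-, and 1, Csf3r, passed the test in EV+ and EV-. Nearly all of the sum was Csf3r (528 to 723 CPM). The granule gene Camp was at 8.28 and 9.20 CPM in control, 10.2 and 11.8 in GN, and between 7.62 and 13.2 in EV+ and EV-. The 15 macrophage markers summed to between 26638 and 26964 CPM in control and between 30261 and 32595 CPM in the other 3 groups. The 8 B cell markers in the table summed to between 337 and 479 CPM with all groups overlapping, nearly all of it Cd22 and Cd79b. Of these 8, Bank1 was called higher than control in EV+ and EV- (7.90 and 10.7 CPM in control, 14.3 to 19.6 CPM elsewhere) and Cd79b lower in GN (87.0 and 109 against 42.1 and 67.6 CPM). The haemoglobin gene Hbb, the 1 erythroid marker in the table, was at or below 1.44 CPM in control and between 2.68 and 5.25 CPM elsewhere, and was called higher in GN and EV-. The part of these shifts in the results below was not tested.

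A G protein-coupled receptor that binds its ligand loads a G protein with GTP, and the α subunit then raises cyclic AMP (Gs), lowers it (Gi), activates phospholipase C (Gq) or acts on the cytoskeleton (G12/13). RGS proteins speed the return of the α subunit to its inactive form and so shorten the signal. In macrophages these receptors sense products of injured and activated cells, such as ATP, adenosine, lysophospholipids, prostaglandins and platelet-activating factor, and guide movement, engulfment and cytokine release.

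Expression is given as CPM normalised by the trimmed mean of M-values (TMM). CPM is not divided by transcript length, so levels are compared between libraries of 1 gene and not between genes. Of the 62 genes, 43 had a mean of at least 5 CPM over the 10 libraries, 19 were below that and 7 were below 1 CPM, and 6 were at 0 in at least 1 library. A gene with 3 reads stood at 0.113 to 0.153 CPM, depending on the library. Among the 43 genes of at least 5 CPM, the highest library exceeded the lowest by a median of 1.48-fold, against 1.41-fold for all 7193 genes at that level. The steadiest was Gpr108, whose product acts in the Golgi, at 1.12-fold (184 to 205 CPM), and the most variable was Gpr146, at 4.43-fold. All comparisons with control share the same 2 control libraries, and both comparisons with GN share the same 2 GN libraries, so they are not independent of one another.

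**Figure D1:**
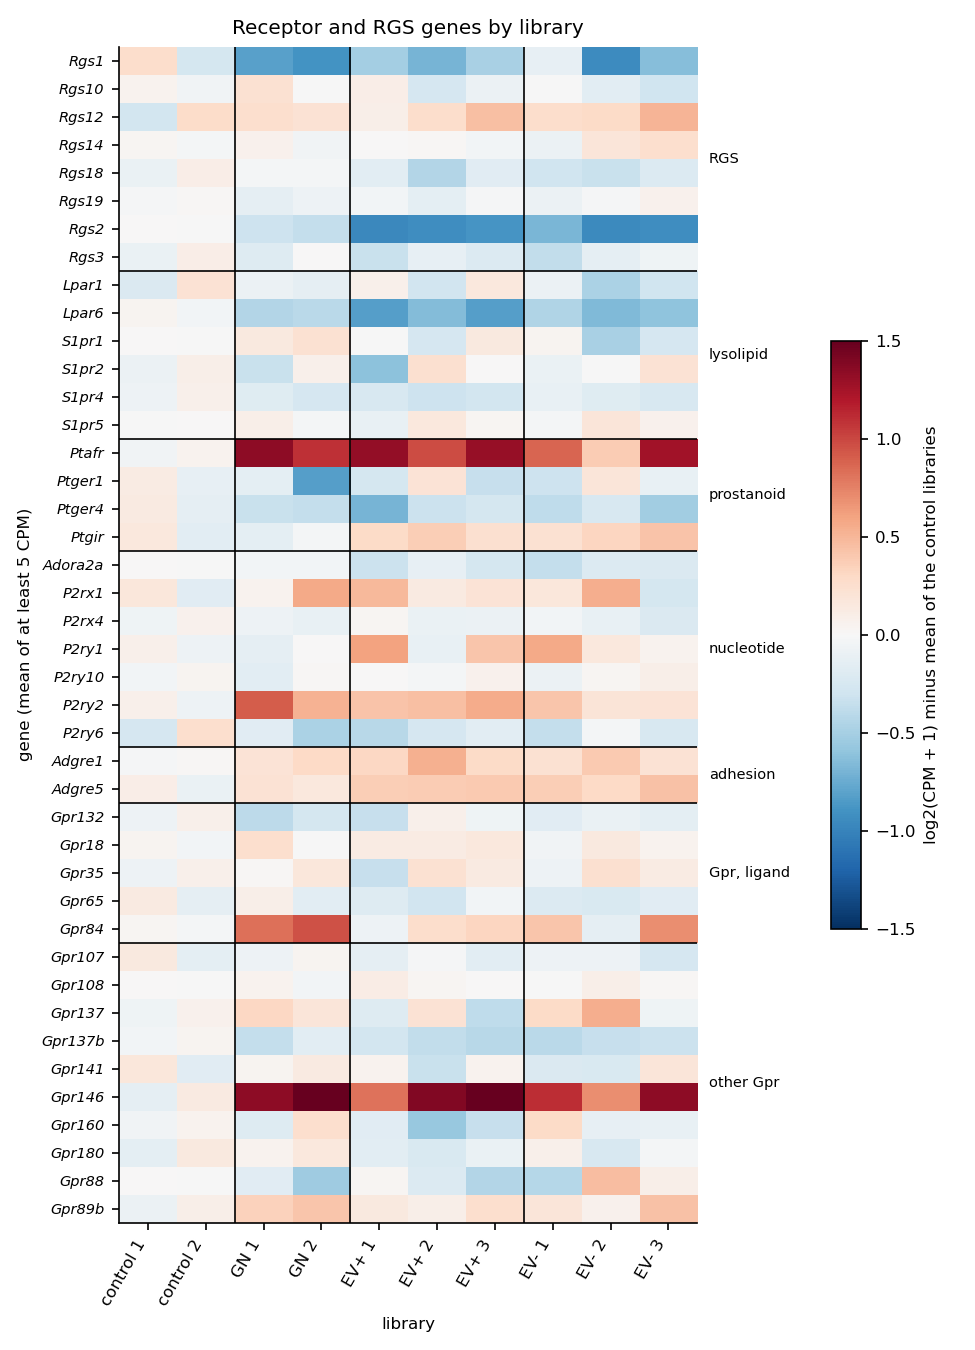
Each row is 1 receptor or RGS gene with a mean of at least 5 CPM, grouped by role and without the adrenergic receptors, each column is 1 library, and colour gives log2(CPM + 1) minus the mean of the 2 control libraries (red higher, blue lower). Most rows stay pale, while Gpr146, Ptafr and P2ry2 are red and Rgs2, Rgs1 and Lpar6 are blue in most nephritic libraries.

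A small number of these genes differed from control in the nephritic groups. No group received ASCs without nephritis, so nephritis and ASC treatment cannot be told apart in EV+ or EV- against control. The GTPase regulator Rgs2 and the lysophosphatidic acid receptor Lpar6 were lower, and Ptafr, the receptor for platelet-activating factor, the receptor Gpr146 and the adhesion receptor Adgre5 were higher, in both EV+ and EV- macrophages than in control. In GN, 5 of the 62 genes passed limma's test at a false discovery rate (FDR) under 0.1 over all genes (8.06%, where 1.75% of all genes did). Of these Ptafr, Gpr146 and P2ry2 were higher and Lpar6 and Rgs1 lower, and over all genes 0.933% were higher and 0.822% lower. In EV+ against control 8 passed (12.9%, where 3.63% of all genes did), 5 higher and 3 lower (1.82% and 1.81% of all genes). In EV- against control 5 passed (8.06%, where 2.84% of all genes did), 3 higher and 2 lower (1.29% and 1.56% of all genes). Over any of the 4 groups, 6 passed (9.68%, where 2.57% of all genes did), namely Rgs2, Lpar6, Ptafr, Gpr146, Adgre5 and P2ry2. Since the set was chosen with earlier results of these data known, its shares are no independent comparison with all genes. The median log2 fold change over the 62 genes was -0.01 in GN, -0.07 in EV+ and -0.02 in EV- against control, and over all genes it was -0.00014, -0.00013 and 0.0070. Groups without overlap were seen for 31 of the 62 genes in GN against control (43.9% of all genes), 22 in EV+ against control (30.5%), 23 in EV- against control (29.1%), 16 in EV+ against GN (23%) and 21 in EV- against GN (25.4%). In bulk RNA, a smaller share of cells that express a gene and less of its RNA per cell cannot be told apart.

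The counts changed when single libraries were left out. Leaving out 1 of the 2 control or GN libraries leaves a group of 1, which is then assumed to vary like the other groups. The 5 genes of GN against control became 0 without GN replicate 1, 1 without control replicate 1, 2 without GN replicate 2 and 3 without control replicate 2, EV+ replicate 3 or EV- replicate 3. The 8 genes of EV+ against control became 5 without control replicate 1 and 4 without control replicate 2. The 5 genes of EV- against control became 3 without control replicate 1 or EV- replicate 3, 2 without control replicate 2 and 8 without EV+ replicate 2, and the 6 among the 4 groups became 2 without control replicate 2. Without EV- replicate 1, where the NK and T cell markers stood highest, 4 genes passed in EV- against control. These were Rgs2, Lpar6, Adgre5 and, newly, Rgs1 (log2 fold change -0.79, adjusted p = 0.0396, limma), while Ptafr (adjusted p = 0.133, limma) and Gpr146 (adjusted p = 0.132, limma) no longer passed. The same fit, which also changes the estimate of the spread, called Rgs2 in GN (adjusted p = 0.0722, limma) and Rgs1 in EV+ (adjusted p = 0.0859, limma).

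**Figure D2:**
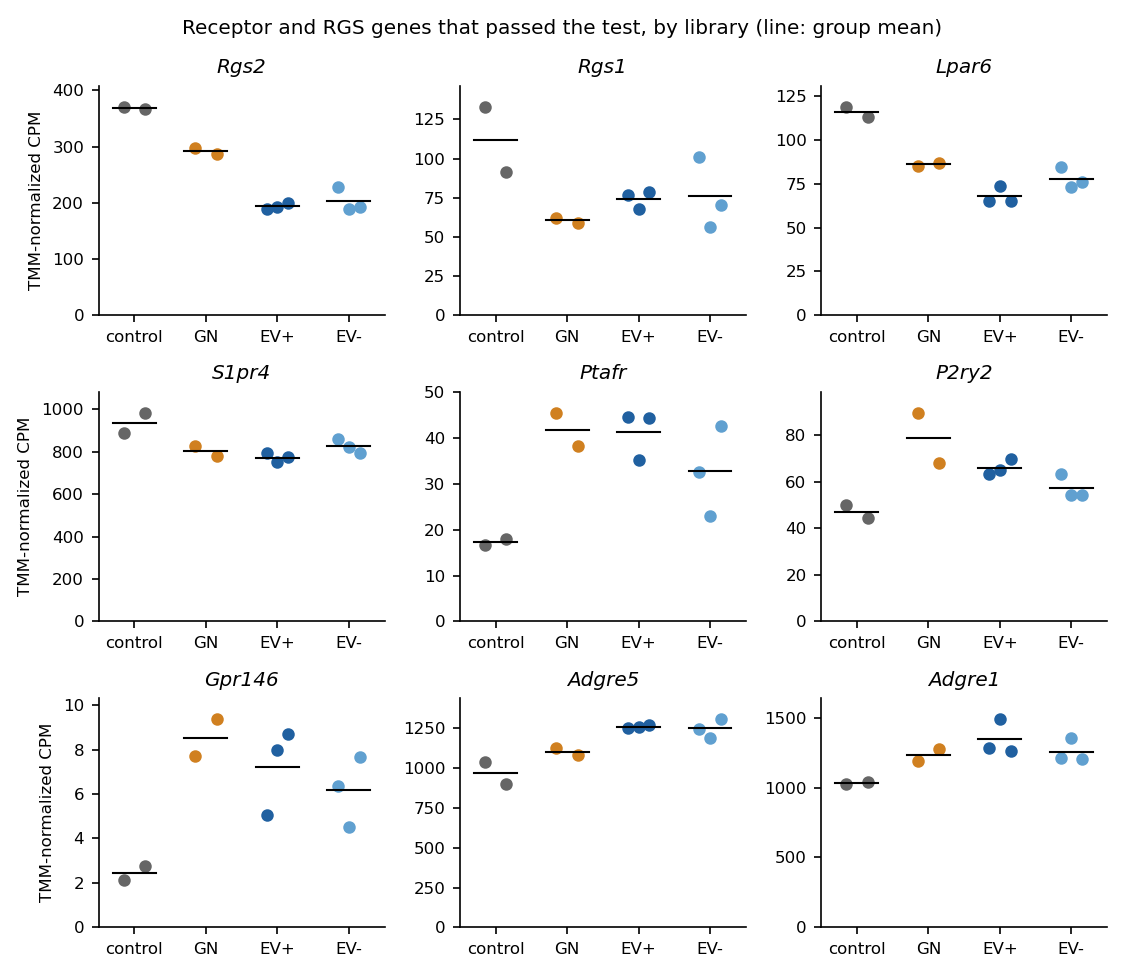
Points are the TMM-normalised CPM of each library for the 9 genes that passed the test in any comparison (control n = 2, GN n = 2, EV+ n = 3, EV- n = 3), the horizontal line is the group mean, and each axis starts at 0. The mean of Rgs2 is 369 CPM in control, 292 in GN, 194 in EV+ and 204 in EV-, whereas Ptafr, P2ry2 and Gpr146 stand lowest in control.

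Among the 8 RGS genes, 1 was called lower than control in each of the 3 nephritic groups, Rgs1 in GN and Rgs2 in EV+ and EV-. Over all genes 0.822% were called lower in GN, 1.81% in EV+ and 1.56% in EV-. Rgs2 acts mainly on Gq-coupled signals. Its level was 371 and 367 CPM in the control libraries, 298 and 287 CPM in GN, 188, 193 and 200.0 CPM in EV+, and 229, 189.5 and 192 CPM in EV-. All nephritic libraries lay below both controls, and all EV+ and EV- libraries lay below both GN libraries. The log2 fold change against control was -0.93 (SE 0.0856, adjusted p = 3.55e-05, limma) in EV+ and -0.86 (SE 0.0856, adjusted p = 9.37e-05, limma) in EV-. Against GN it was -0.59 in EV+ (SE 0.0856, adjusted p = 0.0156, limma) and -0.53 in EV- (SE 0.0856, adjusted p = 0.0175, limma), and no other member passed in either comparison. Thus 1 of 62 genes passed in EV+ against GN, where 0.122% of all genes did, and 1 in EV- against GN, where 0.378% did. Neither call against GN held without GN replicate 1 (adjusted p = 0.352 and 0.326, limma) or without GN replicate 2, while the fold changes over the 10 such fits lay between -0.62 and -0.56 in EV+ and between -0.61 and -0.48 in EV-. GN itself stood below control by a log2 fold change of -0.33 without passing the test (SE 0.0938, adjusted p = 0.138, limma).

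Rgs1, which restrains Gi-coupled chemotactic signals in leukocytes, was at 133 and 91.3 CPM in control, 62.4 and 58.9 CPM in GN, 77.0, 67.6 and 78.4 CPM in EV+, and 101, 56.7 and 70.3 CPM in EV-. The controls differed widely, and EV- replicate 1 lay between them. Rgs1 fell in GN by 0.85 on the log2 scale (SE 0.212, adjusted p = 0.0861, limma), with no overlap of the groups, whereas EV+ (log2 fold change -0.57, adjusted p = 0.178) and EV- (-0.57, adjusted p = 0.196) did not pass limma's test. Its fall in GN passed in 5 of the 10 fits that each left out 1 library. The remaining RGS genes, Rgs3, Rgs10, Rgs12, Rgs14, Rgs18 and Rgs19, passed no test. Rgs19, also called GAIP, ranged only from 126 to 146 CPM over the 10 libraries, and Rgs3 from 120 to 165 CPM.

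In the rat annotation GRCr8, Rgs2 and Rgs1 lie on chromosome 13 with 1 protein-coding gene between them, and Rgs18 follows after 1 more. The promoter windows of the RGS pair and of the lipid receptors Lpar6 and Ptafr are shown because these genes carry the largest calls among lipid receptors and regulators. They are the 250 bases before each RefSeq start in GRCr8, written on the strand of the gene from 5′ to 3′: chr13:58352667-58352916 (minus strand) for Rgs2, chr13:58573188-58573437 (minus) for Rgs1, chr15:54825860-54826109 (plus) for Lpar6 and chr5:150057154-150057403 (plus) for Ptafr. Capitals mark matches, on either strand, to the CRE half-site TGACG or the PU.1 core GAGGAA.
Rgs2: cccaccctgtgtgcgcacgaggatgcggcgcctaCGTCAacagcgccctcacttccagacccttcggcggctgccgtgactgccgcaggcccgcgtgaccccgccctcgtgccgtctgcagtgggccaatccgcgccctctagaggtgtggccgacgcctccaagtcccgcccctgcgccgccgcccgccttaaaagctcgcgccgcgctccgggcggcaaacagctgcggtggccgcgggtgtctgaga
Rgs1: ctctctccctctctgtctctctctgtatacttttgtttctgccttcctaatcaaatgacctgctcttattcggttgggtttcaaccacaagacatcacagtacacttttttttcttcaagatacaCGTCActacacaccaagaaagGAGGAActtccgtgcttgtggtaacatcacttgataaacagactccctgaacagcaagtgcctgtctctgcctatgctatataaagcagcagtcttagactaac
Lpar6: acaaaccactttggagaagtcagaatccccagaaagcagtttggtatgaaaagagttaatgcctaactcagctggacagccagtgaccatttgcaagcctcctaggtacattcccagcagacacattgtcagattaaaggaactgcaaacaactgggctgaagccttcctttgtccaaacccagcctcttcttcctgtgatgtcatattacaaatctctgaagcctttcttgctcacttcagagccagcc
Ptafr: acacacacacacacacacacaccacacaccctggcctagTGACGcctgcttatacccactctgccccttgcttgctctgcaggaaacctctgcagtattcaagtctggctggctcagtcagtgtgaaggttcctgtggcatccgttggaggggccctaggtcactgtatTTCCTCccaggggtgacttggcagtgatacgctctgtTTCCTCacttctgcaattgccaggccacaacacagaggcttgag
The half-site of the cyclic AMP response element (CRE) stands 216 bases before the start in Rgs2, 125 in Rgs1 and 211 in Ptafr, and the core bound by the myeloid factor PU.1 stands 104 bases before the start in Rgs1 and 81 and 44 in Ptafr. Lpar6 holds neither. Over all 33469 RefSeq promoter windows of this length, 18.2% hold TGACG, 23.3% hold GAGGAA, 1.59% the full CRE TGACGTCA (which contains TGACG) and 6.34% the AP-1 site TGANTCA. Of the 51 members with a window, 13 hold TGACG, 14 GAGGAA, 0 the full CRE and 2 TGANTCA. Of the 9 called members, 3 hold TGACG (Ptafr, Rgs1 and Rgs2), 3 GAGGAA (Adgre1, Ptafr and Rgs1), 0 the full CRE and 1 TGANTCA (S1pr4). These are matches of letters and not measured sites, and the files were aligned to another build, rn6.

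Among the lysophospholipid receptors, 2 of 7 were called lower than control in EV+ (1.81% of all genes were) and none was called higher. Lpar6, a receptor for lysophosphatidic acid that couples to G12/13, was at 119 and 113 CPM in control, 84.9 and 86.9 in GN, 65.1, 73.5 and 65.0 in EV+, and 84.7, 72.8 and 75.9 in EV-. All nephritic libraries lay below control and all EV+ and EV- libraries below GN, the highest EV- library by little. Lpar6 fell in GN by 0.43 (SE 0.104, adjusted p = 0.0804), in EV+ by 0.76 (SE 0.0954, adjusted p = 0.000490) and in EV- by 0.57 (SE 0.0954, adjusted p = 0.00708) on the log2 scale against control (limma). The further differences from GN, -0.34 in EV+ (adjusted p = 0.424) and -0.14 in EV- (adjusted p = 0.782), did not pass limma's test. The fall in GN passed in 4 of the 10 fits that left out 1 library, and those in EV+ and EV- passed in all 10.

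The sphingosine 1-phosphate receptor of leukocytes S1pr4 was at 887 and 983 CPM in control, 826 and 781 in GN, 792, 751 and 773 in EV+, and 862, 821 and 792 in EV-. Both controls lay above all other libraries, and EV+ lay below EV- by less than 1 CPM at the nearest libraries. S1pr4 fell in EV+ by 0.27 on the log2 scale (SE 0.0714, adjusted p = 0.0674, limma), a call that held in 5 of the 10 fits that left out 1 library, and its differences in GN (-0.22, adjusted p = 0.311) and EV- (-0.18, adjusted p = 0.290) did not pass. S1pr5, another receptor for the same lipid and best known from NK cells, ranged from 936 to 1142 CPM with overlapping groups. Its level in EV- replicate 1, the library with the highest NK and T cell marker sum, was 988 CPM, within the range of the other libraries. The part of NK cells in the level of S1pr5 was not tested. S1pr1, S1pr2 and Lpar1 passed no test, and S1pr3 was at 0 in 2 libraries and at most 1.5 CPM in any.

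Of the 6 receptors for prostanoids, platelet-activating factor and leukotrienes, 1 was called higher than control in all 3 nephritic groups. Over all genes 0.933% were called higher in GN, 1.82% in EV+ and 1.29% in EV-. Ptafr, the receptor for platelet-activating factor and a Gq and Gi coupled sensor of inflammatory lipids, was at 16.6 and 17.9 CPM in control, 45.5 and 38.2 in GN, 44.6, 35.1 and 44.4 in EV+, and 32.6, 22.9 and 42.7 in EV-. Every nephritic library exceeded both controls, and the EV- libraries spread most. Ptafr rose by a log2 fold change of 1.22 in GN (SE 0.219, adjusted p = 0.0140), 1.20 in EV+ (SE 0.200, adjusted p = 0.00473) and 0.84 in EV- (SE 0.200, adjusted p = 0.0556) against control (limma). EV+ and GN differed by -0.02 (SE 0.200, adjusted p = 0.992, limma). The rise in EV+ passed in all 10 fits that left out 1 library, that in GN in 8 and that in EV- in 6. Neutrophils also express Ptafr. Of the 7 neutrophil markers in the table, 4 were higher and 3 lower than control in GN by fold. In both EV+ and EV-, 6 were higher and 1 lower. The part of neutrophils in this result was not tested.

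**Figure D3:**
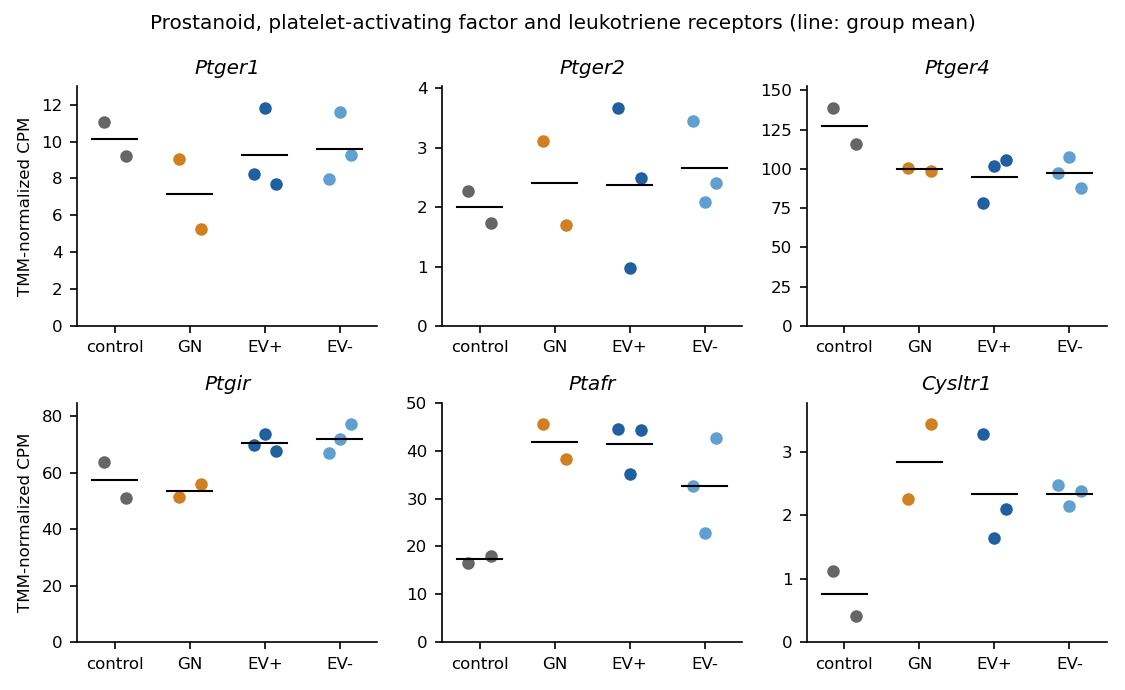
Points are the TMM-normalised CPM of each library for the 6 receptors of prostanoids, platelet-activating factor and leukotrienes, with the group mean as a line and axes from 0. Ptafr and Cysltr1 are lowest in control, Ptger4 is highest in control, Ptgir is higher in all EV+ and EV- libraries than in control or GN, and Ptger1 and Ptger2 overlap between groups except that Ptger1 is lower in GN than in control.

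Prostaglandin E2, a product of mesenchymal stem cells, acts through receptors of which 3 were in the table. Ptger4, which raises cyclic AMP, was at 139 and 116 CPM in control, 101 and 98.9 in GN, 78.0, 102 and 106 in EV+, and 97.3, 107 and 87.7 in EV-. Both controls lay above every other library, but the differences of -0.34 in GN, -0.42 in EV+ and -0.38 in EV- on the log2 scale did not pass limma's test (adjusted p = 0.393, 0.126 and 0.200). The Gs-coupled receptor Ptger2 stayed between 0.968 and 3.67 CPM and the Gq-coupled Ptger1 between 5.27 and 11.8 CPM, and neither passed. Ptgir, the prostacyclin receptor, also raises cyclic AMP. It was at 63.9 and 50.9 CPM in control, 51.3 and 55.9 in GN, 69.8, 73.7 and 67.6 in EV+, and 67.1, 71.8 and 77.1 in EV-. All 6 libraries from ASC-treated rats exceeded all 4 others. The log2 fold changes against GN were 0.39 in EV+ (SE 0.111, adjusted p = 0.437) and 0.42 in EV- (SE 0.111, adjusted p = 0.262), and neither passed limma's test over all genes. Cysltr1, a cysteinyl leukotriene receptor, was at 1.12 and 0.412 CPM in control and between 1.64 and 3.43 CPM in the other libraries. Its log2 fold change against control was 1.13 in GN (SE 0.307, adjusted p = 0.121, limma), at a level of few reads, and it was named after its values were seen.

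Of the 11 nucleotide and adenosine receptors, 1 passed in at least 1 of the 6 pairs of groups, where 4.89% of all genes did. P2ry2, a Gq-coupled receptor for ATP and UTP through which phagocytes find dying cells, was at 49.8 and 44.5 CPM in control, 89.5 and 67.8 in GN, 63.4, 64.8 and 69.5 in EV+, and 63.0, 54.1 and 54.2 in EV-. Control was lowest, GN replicate 1 was highest, and EV+ lay above EV- without overlap. P2ry2 rose in GN by 0.72 (SE 0.135, adjusted p = 0.0181) and in EV+ by 0.48 (SE 0.123, adjusted p = 0.0657) on the log2 scale against control (limma). In EV- it stood 0.27 above control (adjusted p = 0.364) and -0.44 from GN (adjusted p = 0.290), neither past limma's test. Its calls held in 8 of 10 fits that left out 1 library for GN and in 6 of 10 for EV+.

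Adora2a, the Gs-coupled adenosine receptor that restrains inflammation, was at 1115 and 1113 CPM in control, 1079.7 and 1083 in GN, 892, 1019 and 930.4 in EV+, and 873, 967 and 962 in EV-. The groups from ASC-treated rats lay below both others without overlap, but the log2 fold changes against control, -0.24 in EV+ (adjusted p = 0.140) and -0.26 in EV- (adjusted p = 0.121), did not pass limma's test. P2ry10, a lysophosphatidylserine receptor named as a nucleotide receptor, ranged from 629 to 749 CPM and the ATP-gated channel P2rx4 from 273 to 332 CPM, with no call. P2rx7, the channel that triggers the inflammasome, was at or below 1.13 CPM in every library; in the annotation it is the next protein-coding gene to P2rx4. P2ry1, an ADP receptor, was at 20.8 and 18.6 CPM in control, 17.9 and 19.7 in GN, 30.4, 18.1 and 26.6 in EV+, and 29.6, 22.1 and 20.5 in EV-, and passed no test.

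Adhesion receptors carry a long extracellular part that binds neighbouring cells or matrix. Adgre5 (CD97), which binds CD55, was at 1034 and 902 CPM in control, 1125 and 1081 in GN, 1251, 1254 and 1268 in EV+, and 1246, 1189.8 and 1308 in EV-. The groups stood in that order with no overlap between control, GN and the treated groups. Adgre5 rose by 0.38 in EV+ (SE 0.0738, adjusted p = 0.0141) and 0.37 in EV- (SE 0.0738, adjusted p = 0.0217) on the log2 scale against control (limma). Both calls were lost only without control replicate 2 among the fits that left out 1 library (adjusted p = 0.235 and 0.299, limma). Its difference in GN, 0.19, did not pass (adjusted p = 0.411, limma).

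Adgre1, which encodes the macrophage marker F4/80, was at 1025 and 1042 CPM in control, 1187 and 1275 in GN, 1283, 1491 and 1261 in EV+, and 1214, 1353 and 1202 in EV-. Both controls were lowest. It rose in EV+ by 0.38 (SE 0.0846, adjusted p = 0.0325, limma), in 8 of the 10 fits that left out 1 library, and its differences in GN (0.25, adjusted p = 0.318) and EV- (0.28, adjusted p = 0.138) did not pass. Adgre1 is itself a macrophage marker, and the 15 other macrophage markers, which do not include it, also summed lowest in control, as given above. The other 3 adhesion receptors, Adgrg2, Adgrg5 and Adgrl1, stayed at or below 2.90 CPM in every library.

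**Figure D4:**
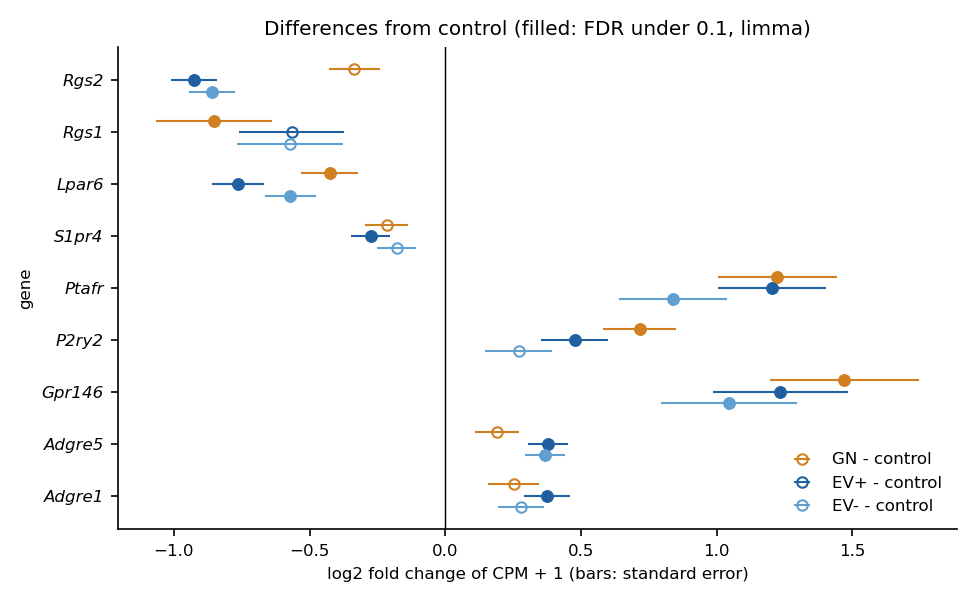
For the 9 genes that passed the test in any comparison, the horizontal axis is the log2 fold change of CPM + 1 against control in GN, EV+ and EV-, bars are standard errors and filled points passed an FDR under 0.1. Each gene has the same sign in all 3 comparisons, which share the control libraries, from 1.47 for Gpr146 in GN to -0.93 for Rgs2 in EV+.

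Of the 23 numbered Gpr genes, 1 passed in at least 1 of the 6 pairs of groups, where 4.89% of all genes did. Gpr146, known mainly from work on blood cholesterol, was at 2.12 and 2.76 CPM in control, 7.69 and 9.38 in GN, 5.04, 7.96 and 8.70 in EV+, and 6.37, 4.54 and 7.67 in EV-. The groups overlapped one another except for control, which lay below all of them, and except that EV- lay below GN. Gpr146 rose by 1.47 in GN (SE 0.274, adjusted p = 0.0179), 1.24 in EV+ (SE 0.250, adjusted p = 0.0180) and 1.05 in EV- (SE 0.250, adjusted p = 0.0564) on the log2 scale of CPM + 1 (limma), a scale that understates changes at such low levels. The calls held in 7, 9 and 6 of the 10 fits that left out 1 library.

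Gpr84, a receptor for medium-chain fatty acids that is induced in activated macrophages, was at 6.74 and 6.43 CPM in control, 12.5 and 13.7 in GN, 6.21, 8.08 and 8.52 in EV+, and 9.14, 5.91 and 11.3 in EV-. GN stood above all other libraries. Neither the log2 fold change of 0.90 in GN against control (SE 0.249, adjusted p = 0.136) nor that of -0.72 in EV+ against GN (SE 0.228, adjusted p = 0.486) passed limma's test. Gpr137b, a lysosomal membrane protein, was at 54.0 and 57.3 CPM in control and between 41.4 and 49.9 CPM elsewhere, and did not pass (smallest adjusted p = 0.112, EV+ against control, limma). Gpr132, a lipid and proton sensor, ranged from 69.2 to 96.1 CPM and Gpr18 from 96.7 to 120.0 CPM, with no call.

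DiD-positive and DiD-negative macrophages of the same treatment were compared to ask whether receptor genes differed with vesicle uptake. None of the 62 genes passed limma's test between EV+ and EV-, where 0.0222% of all genes did, and 0 passed edgeR's quasi-likelihood test or DESeq2. That limma test did not pair the libraries, and 0 passed with the replicate number as a block. At an unadjusted p under 0.05 there were 2 of 62 (Lpar6 and Gpr171), against 4.57% of all genes. The groups did not overlap for 4 of the 62 genes (8.91% of all genes), P2ry2 higher in EV+ and S1pr4, Gpr160 and Gpr171 lower (4.25% and 4.65% of all genes in these directions). For Rgs2 the difference was -0.07 on the log2 scale (SE 0.0766), for Lpar6 -0.19 (SE 0.0853), for Ptafr 0.36 (SE 0.179) and for P2ry2 0.21 (SE 0.110). Gpr160, an orphan receptor, was at 8.09, 5.94 and 7.05 CPM in EV+ and at 11.5, 8.41 and 8.52 CPM in EV-.

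Several receptors of low level were highest in EV- replicate 1, the library with the most NK and T cell marker RNA. They were 7 of the 62 genes (9.71% of all genes were highest in that library), a share near the background, and these genes were named after their values were seen. Gpr171, found on T and NK cells, was at 5.49 CPM there and at most 0.968 CPM in the other 9 libraries. Gpr174, a lymphocyte receptor for lysophosphatidylserine, was at 1.51 against at most 0.758 CPM, the adrenergic receptor Adrb1 at 1.51 against at most 0.501 CPM, and Adgrg5 at 1.26 against at most 0.866 CPM. The other 3 were Adora2b (3.40 against 2.12 CPM), Gpr15 (1.56 against 1.43 CPM) and Gpr160 (11.5 against 11.2 CPM). In the same library the cytotoxic granule gene Prf1 was at 335 CPM against at most 51.4 CPM elsewhere and the T cell receptor chain Cd3e at 2.09 against at most 0.311 CPM. No difference of these receptors between groups passed the test, and the part of NK or T cells in them was not tested.

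**Figure D5:**
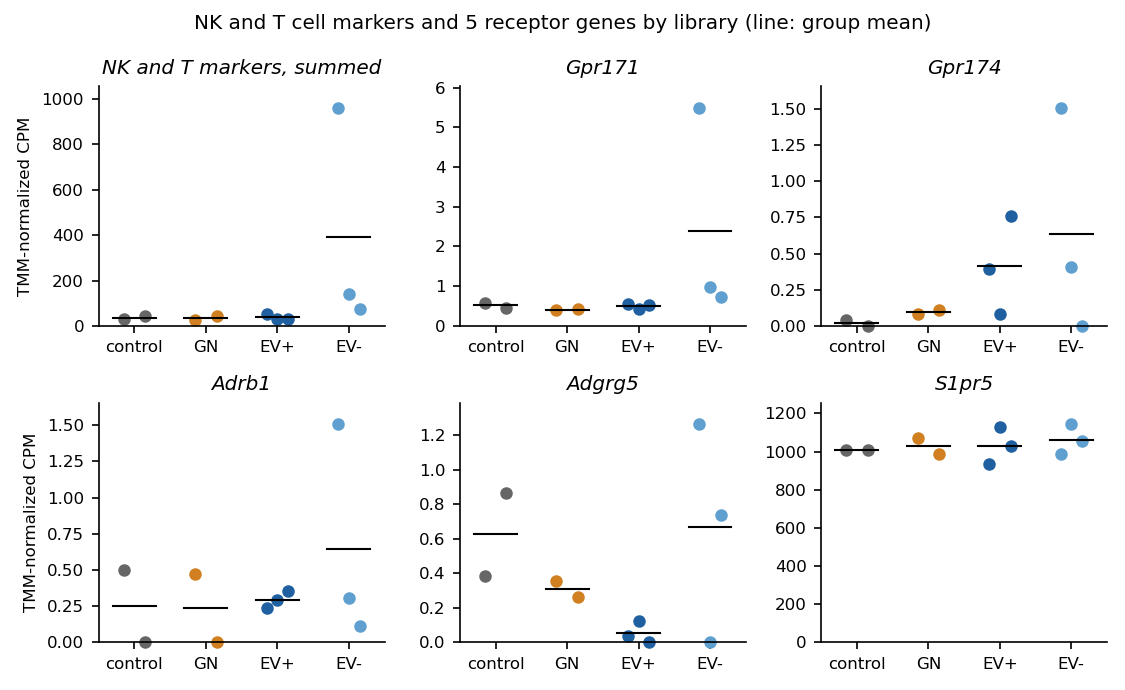
Points are the TMM-normalised CPM of each library for the sum of 16 NK and T cell markers and for 5 receptor genes, with the group mean as a line and axes from 0. The marker sum, Gpr171, Gpr174, Adrb1 and Adgrg5 are highest in 1 EV- library (replicate 1). S1pr5 ranges from 936 to 1142 CPM over the libraries.

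The genes that act around these receptors were taken from lists of G protein signalling and ligand supply. Over all genes 4.89% passed in at least 1 of the 6 pairs of groups. Of 24 G protein subunits and their modulators, Gng2, a γ subunit, was higher than control in GN (log2 fold change 0.75, adjusted p = 0.0264), EV+ (0.67, adjusted p = 0.0180) and EV- (0.56, adjusted p = 0.0583), and Gpsm3, a binder of Gi subunits, was lower in EV+ (-0.39, adjusted p = 0.0832, limma). Of 12 receptor kinases and arrestins, Arrb2, an arrestin that ends receptor signals, was lower in EV+ (-0.31, adjusted p = 0.0624, limma). Of 18 effectors of Gq and G12, Plcb1, a phospholipase C that Gq activates, was lower than control in all 3 groups. It was at 18.4 and 18.0 CPM in control, 10.2 and 7.08 in GN, 8.91, 10.3 and 8.03 in EV+, and 7.63, 9.58 and 5.91 in EV-. Its log2 fold changes were -1.01 in GN (adjusted p = 0.0542), -0.93 in EV+ (adjusted p = 0.0315) and -1.16 in EV- (adjusted p = 0.0121, limma). None of 26 genes of cyclic AMP synthesis, breakdown and response and none of 16 genes of nucleotide release and breakdown passed limma's test in any pair of groups.

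Of 11 genes that make, move or break down lysolipids and oxysterols, 3 passed in at least 1 pair. Lipg, a phospholipase of the lipase family, was at 32.1 and 29.8 CPM in control, 15.6 and 18.0 in GN, 32.7, 28.8 and 27.6 in EV+, and 23.2, 30.3 and 23.4 in EV-. GN stood below every other library. Lipg fell in GN by 0.85 on the log2 scale against control (adjusted p = 0.0179) and rose again by 0.79 from GN to EV+ (adjusted p = 0.0893), while EV- against GN did not pass (0.57, adjusted p = 0.208, limma). Ch25h, which makes the oxysterol precursor of the ligand of Gpr183, was at 2.35 and 2.39 CPM in control and between 0.535 and 1.43 CPM elsewhere, and it fell by 0.99 in EV+ (adjusted p = 0.0712) and 0.96 in EV- (adjusted p = 0.0964, limma). Spns2, which exports sphingosine 1-phosphate, was higher in EV- than in control (0.71, adjusted p = 0.0683, limma). Without EV- replicate 1, Gng2 and Spns2 in EV- (adjusted p = 0.146 for both, limma) and Gpsm3 in EV+ (adjusted p = 0.112, limma) no longer passed. Of the 13 calls of these genes around the receptors, that of Plcb1 in EV- held in all 10 fits that left out 1 library, and the others held in 2 to 8 of them.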

How the data were processed

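Sorted splenic M2 macrophages were sequenced in 10 libraries. The authors aligned reads to rn6 with STAR (2.5.3), counted them on RefSeq genes with HTSeq (0.6.0), removed genes whose maximum CPM was under 1 and deposited a normalized signal, TMM-normalised CPM in edgeR (version not given in the sources used here). The deposited signal divided into whole reads for 100% of values (tolerance 0.01 read), and CPM rebuilt from them differed by at most 4.00e-05. Reads per library ranged from 19270515 to 26617093, and floors of 3 reads cover counting error only. Each of the 9003 genes in the table reached at least 1.01 CPM in some library. Of its symbols 18 had become dates, none of them a member. Il6 was not analysed here, and 1 member that the naming rule selects is not reported here.

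Groups came from the labels. Since the deposited values are normalised, genes were tested with limma (3.58.1, R 4.3.3) with an intensity trend on log2(CPM + 1), with a design of the 4 groups, all 10 libraries and 6 residual degrees of freedom. Calls used a Benjamini-Hochberg FDR under 0.1 over 9003 genes. Limma and edgeR's quasi-likelihood test were tried on simulated counts in which genes changed in GN only, and only GN against control was checked. The comparisons with EV+ and EV- were not checked in this way. The alternatives were a pseudocount of 0.1, limma without the trend, a filter of at least 1 CPM in at least 2 libraries (57 members passed), edgeR's quasi-likelihood test (4.0.16) and DESeq2 (1.42.0) on the recovered reads, RLE size factors, fits of the compared groups alone, a replicate block and leaving out each library. The block within the EV+ and EV- libraries alone was added after seeing the data. Libraries of 1 group differed by more than sampling noise (chi-square per degree of freedom 13.4 to 45.4).

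EV+ and EV- libraries of the same number deviated together from their group means (r = 0.122 to 0.295 over genes in 3 pairs, each above 0.1). EV+ and EV- libraries of different numbers had r from -0.229 to -0.0129. Yet libraries of different animals also exceeded 0.1, control replicate 1 with EV+ replicate 2 (r = 0.141) and control replicate 2 with EV+ replicate 1 (r = 0.106). The mark of 0.1 thus does not by itself single out libraries that share an animal. The replicate numbers of EV+ and EV- were taken as pairs on the data alone, since the labels do not say that they share an animal. The main test did not use the pairs, which entered only the alternatives with a replicate block. For control and GN the correlation was 0.0878, a single value, since with 2 libraries in each group both pairs give the same number by construction.

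Members were chosen by symbol, and the members, roles and gene lists were chosen with earlier results of these data known. Genes were named if they passed the test in any comparison, had the highest means of their role, had the largest changes without overlap among members with a mean of at least 5 CPM, or were prostaglandin receptors or Lpar6. Other members given by their range were picked after their values were seen. Promoter windows were RefSeq's (GRCr8) and matched 51 of 62 members by symbol. The library kit does not mark strand, so reads from a gene and an antisense partner cannot be told apart. The p-values of limma set differences of group means against a spread between libraries. That spread is pooled over the groups and drawn towards that of genes at a similar level. Whether it is a spread between single animals is not known from the labels.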

Additional observations from a re-analysis of the deposited data

How the results depend on the processing

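None of the 20 member calls and none of the 13 calls of genes around the receptors changed sign under the alternatives run. Among 40 member differences that had not passed, 2 small ones did: leaving out 1 library at a time gave -0.11 to 0.020 for Rgs2 in EV+ against EV- (0.020 without EV- replicate 1) and -0.14 to 0.10 for Ptafr in EV+ against GN (above 0 without GN replicate 1 or EV+ replicate 2). Of 360 recomputations of the member calls, 297 kept the call and 63 lost it, and of 234 recomputations of the others 155 kept it and 79 lost it. Of 726 recomputations of member differences that had not passed, 28 gained a call. The calls of Rgs2 and Lpar6 in EV+ and EV- against control and of Ptafr in EV+ held under all alternatives. Without the intensity trend the number of members called was 1 in GN, 4 in EV+ and 2 in EV- against control, 0 in both comparisons with GN and 2 among the 4 groups. With DESeq2 it was 8, 13 and 11 against control, 3 in EV- against GN (P2ry2, Ptgir and Rgs2) and 14 among the 4 groups. Fits of only the groups compared gave 5 in EV+ and 3 in EV- against control. Leaving out 1 library at a time gave 0 to 6 in GN, 4 to 9 in EV+ and 2 to 8 in EV- against control, 0 to 1 in each comparison with GN, 0 in EV+ against EV- and 2 to 8 among the 4 groups. With the replicate number as a block, whether or not it pairs libraries, the counts were 6, 8 and 7 against control, 1 and 1 against GN, 0 between EV+ and EV- and 8 among the 4 groups. The block added calls of Gpr84 in GN, of Rgs1 in EV+ and EV- and of Adgre1 in EV-, lost S1pr4 in EV+, and changed no call between EV+ and EV-. The causes of these changes were not tested. For the 7 members with a mean under 1 CPM, the depth limits what could be detected.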
